A study of Mus musculus with 16 samples.

Results

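The genes described here are 33 mouse genes of mitosis and cytokinesis, chosen by name and found in the count table through their gene identifiers. All 33 were present among the 27179 gene identifiers of the table, and all 33 were among the 15785 genes that passed the filter on low counts. They were measured by RNA sequencing in 16 hearts of embryos at embryonic day 10.5, 4 hearts of each of 4 genotypes. Wild-type hearts carried all 4 alleles of Ing4 and Ing5, Ing4+/- hearts had lost 1 Ing4 allele, Ing5-/- hearts had lost both Ing5 alleles, and Ing4+/- Ing5-/- hearts had lost 3 of the 4 alleles. ING4 and ING5 are related readers of methylated histone H3 and serve as subunits of complexes that acetylate histones. The labels do not say which part of either gene was altered or in which strain, and they name no Cre or promoter, so the loss is given for the embryo and not for a cell type. There were 7 litters, and in none of them were wild-type and Ing5-/- embryos found together.

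Mitosis is driven by CDK1 bound to cyclin B. Chromosomes are then captured by kinetochores on spindle microtubules, the spindle checkpoint holds back the anaphase-promoting complex until all are attached, and separase opens the cohesin rings. The central spindle and a contractile ring finally divide the cell. Most of these genes are transcribed in G2 and M phase and silenced in resting cells, so in a whole organ their RNA is often read as a measure of how many cells divide. The heart of an embryo at this stage grows by division of cardiomyocytes, endocardial and other cells. In a bulk sample, fewer dividing cells and less RNA per dividing cell cannot be told apart.

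Libraries held between 19753100 and 35664331 counted reads, and counts for the members ranged from 754 to 21046 per heart. Ing5 RNA was 28.9 to 36.9 CPM (counts scaled to a common library size) in wild-type hearts, 18.5 to 29.3 CPM in Ing5-/- hearts and 19.2 to 25.1 CPM in Ing4+/- Ing5-/- hearts. The wild-type and Ing5-/- ranges overlapped, with means of 33.5 and 23.5 CPM, so this level alone did not separate those genotypes. Ing4 RNA was 28.2 to 44.4 CPM in wild-type hearts and 32.0 to 36.3 CPM in Ing4+/- hearts, again with overlap, and it was 32.5 to 36.2 CPM in Ing4+/- Ing5-/- hearts and 43.5 to 60.7 CPM in Ing5-/- hearts. 3 hearts had the farthest scores on the first 3 principal components of all genes, which held 25.3, 14.7 and 12.3% of the variance: Ing4+/- 4, Ing5-/- 1 and Ing4+/- Ing5-/- 2. Their scores were 87.4, 47.3 and 46.4, in that order, and the next highest were 10.4, 32.8 and 21.2. The gap was thus wide for Ing4+/- 4 and narrowest for Ing5-/- 1. They are called below the 3 hearts that stood apart. The 12 cardiomyocyte markers, troponins and myosins among them, summed to 22560 to 37674 CPM in every heart, as a heart sample should hold. Haemoglobin RNA made up 4.68% of the reads of Ing4+/- Ing5-/- 2, 3.23% of those of Ing5-/- 4 and 0.488 to 1.95% in the other 14 hearts.

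Many promoters of this class carry a pair of short elements, a CCAAT box bound by NF-Y and a cell cycle homology region (CHR) bound by the MuvB core of the DREAM complex and by its B-MYB and FOXM1 forms. The promoters of 28 of the 33 members were in the RefSeq table used (build GRCm38.p6, 250 bases before to 50 after each transcript start), with 30 starts among them. The stretch of 100 bases before the start is shown for 4 members, to show how near the elements lie to each other and to the start. They were picked for a single start, both TTTGAA and CCAAT wholly inside that stretch, and little of it inside the annotated gene. They do not stand for all members: in the 30 member promoters, 10 TTTGAA matches began in the first 25 bases from the start and 6 in the next 25. Capitals mark every TTTGAA and CCAAT on either strand, which read TTCAAA and ATTGG when on the other strand.
Cdk1: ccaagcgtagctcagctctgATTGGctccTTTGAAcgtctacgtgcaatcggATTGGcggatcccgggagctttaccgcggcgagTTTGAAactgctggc
Top2a: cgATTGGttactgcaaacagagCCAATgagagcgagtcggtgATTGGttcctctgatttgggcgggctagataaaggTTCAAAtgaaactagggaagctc
Kif11: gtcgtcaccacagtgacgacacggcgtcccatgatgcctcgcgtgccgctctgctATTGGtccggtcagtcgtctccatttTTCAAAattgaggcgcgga
Cdc20: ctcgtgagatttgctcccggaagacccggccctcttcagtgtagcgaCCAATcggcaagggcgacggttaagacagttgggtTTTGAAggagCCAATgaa
These stretches are chr10:69352913-69353012 on the minus strand for Cdk1, chr11:99024190-99024289 on the minus strand for Top2a, chr19:37376282-37376381 on the plus strand for Kif11 and chr4:118437344-118437443 on the minus strand for Cdc20. They lie upstream of the annotated gene, except the last 10 bases of the Top2a stretch, which fall inside it. The nearest CCAAT box upstream of the CHR lay 35 bases before it in Top2a and Cdc20, 33 in Cdk1 and 26 in Kif11, counted between first bases and, in Cdk1, from the CHR nearer the start.

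TTTGAA was found on either strand of the 300-base window in 21 of the 28 members (75%), against 20.2% of the 27025 genes of the promoter table. CCAAT was found in 22 members (78.6%), against 41.1% of all genes, and both were found in 19 (67.9%), against 7.97%. A match to one string can share its last or first base with a match to the other, as happened in 1 of 30 member promoters. Position differed as well: of the 30 TTTGAA matches in member promoters, 23 (76.7%) lay within 40 bases of the start, against 21.2% of the 6737 matches in all promoters and 65.3% of the matches in other mitotic genes. For CCAAT the same share was 29.4% of 51 matches in member promoters and 22.9% in all promoters. In 86 other mitotic genes with a promoter in the table the shares were 46.5% for TTTGAA, 62.8% for CCAAT and 32.6% for both. A match describes the sequence and was not tested as a binding site, and genes of this kind were used to define the elements, so the shares are a description.

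**Figure D1:**
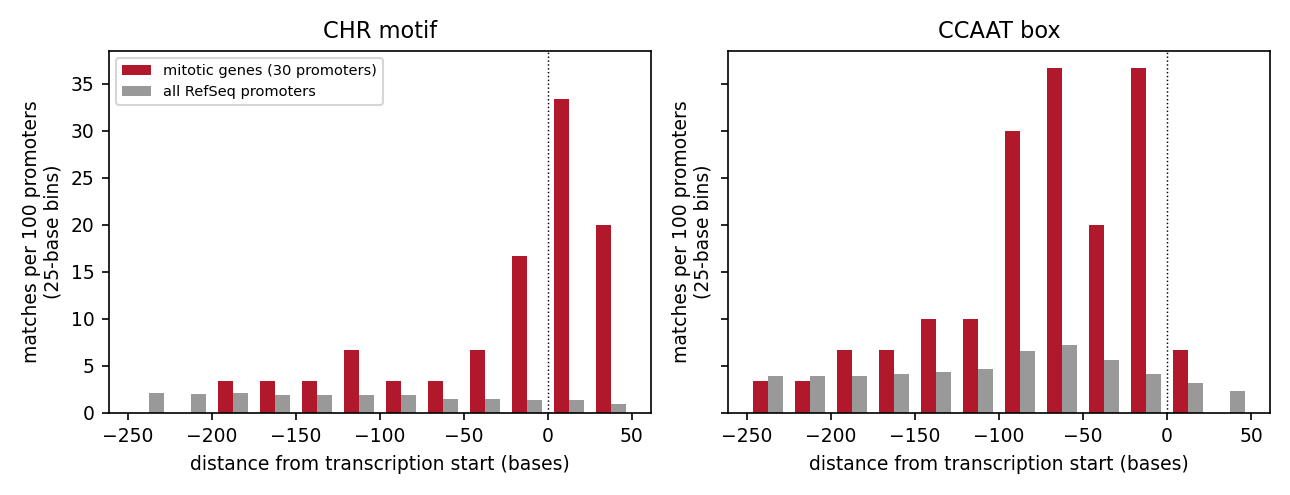
Matches per 100 promoters in 25-base bins against the distance from the transcript start in bases, for TTTGAA (CHR, left) and CCAAT (right), in 30 promoters of the mitotic genes (red) and all 32851 RefSeq promoters (grey). Red TTTGAA bars gather around the start, and 23 of the 30 matches lie within 40 bases of it.

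The members were expressed well above the median gene in wild-type hearts. Levels between genes are compared as RPKM, the CPM per kilobase of gene length. The median member had 39.0 RPKM in wild-type hearts against 7.86 RPKM over all genes tested, and even the lowest member stood at the 52.0th percentile. Top2a, the topoisomerase that untangles sister chromatids, was the highest at 105 ± 5.65 RPKM (SD, n = 4), followed by the cyclin gene Ccna2 at 100.3 ± 4.95 RPKM and the passenger complex gene Cdca8 at 90.5 ± 4.60 RPKM. Aspm, which focuses spindle poles, was the lowest at 8.62 ± 1.25 RPKM, below the checkpoint kinase gene Ttk at 12.2 ± 0.713 RPKM and the kinetochore motor gene Cenpe at 13.2 ± 0.628 RPKM. Most neighbours in this order did not differ beyond their spread: the wild-type ranges overlapped in 27 of 32 neighbouring pairs, and they were separate only below Cdca8, Cdc20, Bub1, Kif4 and Ttk. The members were steady between wild-type embryos, with a median coefficient of variation of 5.08%, against 5.66% for the 5862 genes of the same CPM range.

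Together the 33 genes took 0.501 ± 0.0154% of the reads in wild-type hearts, 0.491 ± 0.0209% in Ing4+/- hearts, 0.486 ± 0.0185% in Ing5-/- hearts and 0.464 ± 0.0443% in Ing4+/- Ing5-/- hearts (SD, n = 4 each). Set against the wild-type mean of each gene, the mean log2 difference over the members was -0.20 in Ing4+/- Ing5-/- 3 and -0.22 in Ing4+/- Ing5-/- 4, and it was -0.07 in Ing4+/- Ing5-/- 1 and 0.07 in Ing4+/- Ing5-/- 2. All 33 members were below their wild-type mean in Ing4+/- Ing5-/- 3, and 32 in Ing4+/- Ing5-/- 4, but only 12 in Ing4+/- Ing5-/- 2. Of the 4 hearts of that genotype, 3 thus lay below the range of the wild-type hearts and 1 above it. In Ing5-/- hearts the means were -0.17, -0.11, -0.01 and 0.04, in Ing4+/- hearts -0.09, -0.09, -0.01 and 0.03, and in wild-type hearts 0.03, -0.04, 0.03 and -0.01 (replicates 1 to 4).

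**Figure D2:**
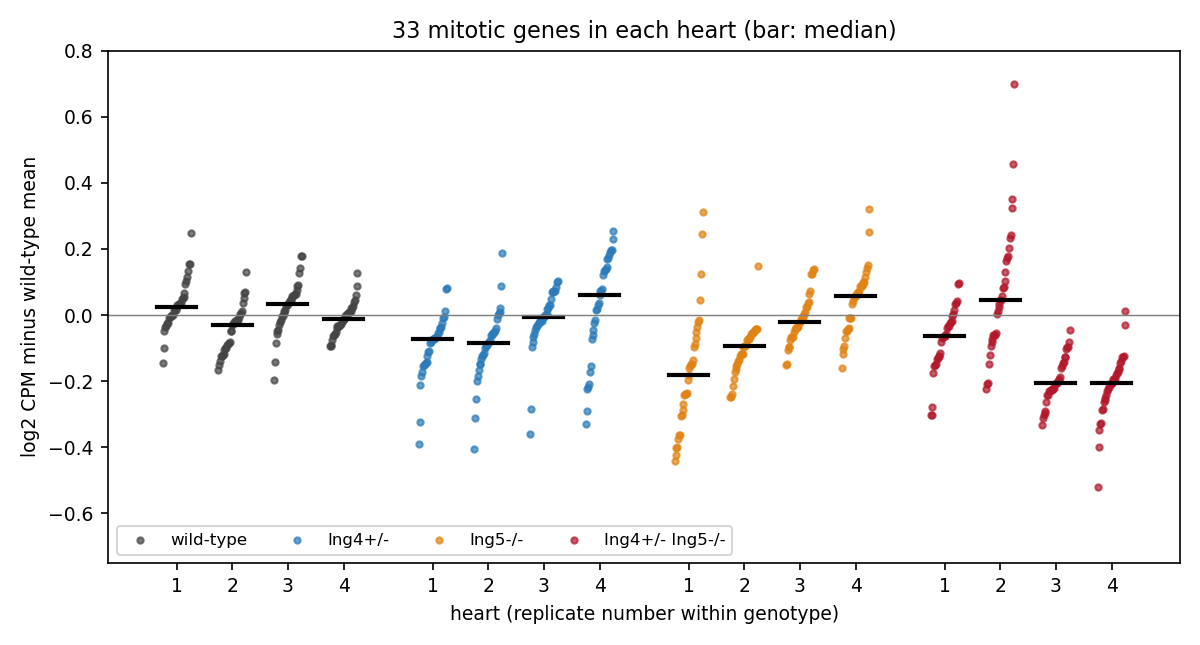
Each point is 1 of the 33 genes in 1 heart, as log2 CPM minus the gene's wild-type mean, with hearts ordered by genotype and replicate number and a bar at the median. All points of Ing4+/- Ing5-/- 3 lie below 0, and the upper points of Ing4+/- Ing5-/- 2 reach 0.70, where Mki67 stands.

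None of the 33 members passed the test in Ing4+/- Ing5-/- against wild-type hearts, where 0.855% of all genes tested did (edgeR quasi-likelihood test, Benjamini-Hochberg adjusted p under 0.05 over 15785 genes). The smallest adjusted p was 0.137, for Racgap1. Log2 fold changes were below 0 for 30 members and above 0 for 3 (Ttk, Ect2 and Mki67), with a median of -0.10, a difference of -6.77%, and they ran from -0.26 for Cenpf to 0.06 for Mki67. Over all genes the median was 0.00 and 49.2% were below 0. Members vary together between hearts, so these 33 signs are not independent observations. At an unadjusted p under 0.05 there were 5 members (Cdk1, Plk1, Cenpf, Racgap1 and Anln), all below 0, where 4.95% of all genes were below 0 at that p and 11.4% passed it in either direction. The 95% interval of the fold change lay within 1.5-fold of no difference for all 33 members.

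The 2 lowest adjusted p-values belonged to genes of cytokinesis. Racgap1 (chromosome 15, 99620496 to 99651656 in GRCm38.p6), a subunit of centralspindlin, which bundles the central spindle and recruits the activator of RhoA, was measured at 225, 216, 233 and 218 CPM in wild-type hearts 1 to 4. It was at 222, 209, 217 and 198 CPM in Ing4+/- hearts, 201, 201, 217 and 199.5 CPM in Ing5-/- hearts and 205, 191, 193 and 183 CPM in Ing4+/- Ing5-/- hearts. Each Ing4+/- Ing5-/- heart was below each wild-type heart, while the Ing5-/- hearts overlapped both. Its log2 fold change in Ing4+/- Ing5-/- against wild-type hearts was -0.21 ± 0.06 (SE, 95% interval -0.34 to -0.08, edgeR adjusted p = 0.137). With the DESeq2 Wald test the adjusted p was 0.0193, and Racgap1 was the only member called by that tool, which called 2.06% of all genes.

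Anln (chromosome 9, 22331214 to 22389211) encodes anillin, the scaffold of the contractile ring that binds actin, myosin and septins. Its level was 186, 178, 178 and 182 CPM in wild-type hearts, 167, 161, 173 and 190.1 CPM in Ing4+/- hearts, 137, 162, 180.5 and 167 CPM in Ing5-/- hearts and 147, 157, 151 and 162 CPM in Ing4+/- Ing5-/- hearts. Again no Ing4+/- Ing5-/- heart reached the wild-type range, and the wild-type hearts lay close together. The log2 fold change was -0.23 ± 0.08 in Ing4+/- Ing5-/- hearts (edgeR adjusted p = 0.200) and -0.16 ± 0.08 in Ing5-/- hearts (adjusted p = 0.512), both against wild-type hearts. The latter was -0.09 without Ing5-/- 1 and -0.26 with litter as a block. Against Ing4+/- hearts it was -0.17 ± 0.08 in Ing4+/- Ing5-/- hearts (edgeR adjusted p = 0.328). Without the heart Ing5-/- 1, Anln passed the edgeR test in Ing4+/- Ing5-/- against wild-type hearts, with an adjusted p of 0.0444, where 2.02% of all genes were called. Ing5-/- 1, where Anln was at its lowest, is in neither group of that comparison. It enters the fit only through the filter, the normalization and the spread estimated over all hearts.

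Besides Racgap1 and Anln, Plk1 and Bub1b had no overlap between Ing4+/- Ing5-/- and wild-type hearts, making 4 of 33 members lower without overlap, where 4.71% of all genes were; none was higher without overlap, where 5.45% of all genes were. Plk1, the kinase of mitotic entry and spindle assembly, was at 129 to 139 CPM in wild-type hearts and 110.0 to 123 CPM in Ing4+/- Ing5-/- hearts. Bub1b, which encodes the checkpoint protein BUBR1, was at 186 to 192 CPM and 158 to 184 CPM. The other 4 genes of the central spindle and cytokinesis were spread around 0: the log2 fold change was -0.18 for Kif20a, -0.10 for Prc1, -0.01 for Kif23 and 0.03 for Ect2, the activator of RhoA. Of these 6 genes, 5 were below 0, and none passed the test.

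**Figure D3:**
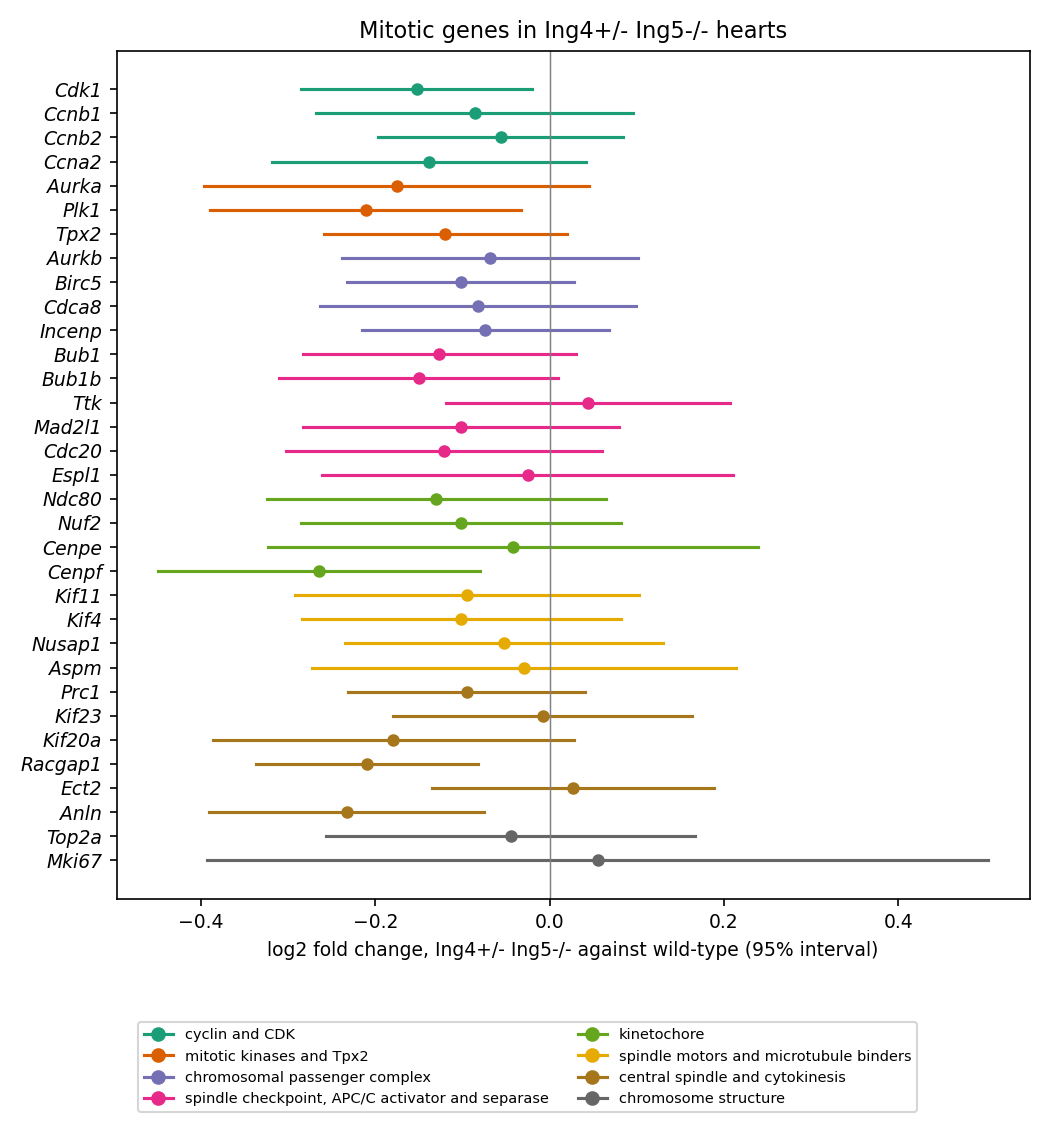
Log2 fold change of each of the 33 genes in Ing4+/- Ing5-/- against wild-type hearts (dot, n = 4 each) with its 95% interval (line), coloured by role. The dots of 30 genes lie left of 0, and 5 intervals (Cdk1, Plk1, Cenpf, Racgap1 and Anln) do not reach it.

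Cenpf (chromosome 1, 189640606 to 189688107), which encodes a large protein of the outer kinetochore, had its lowest values in hearts with 1 Ing4 allele. It was at 172, 147, 151 and 156 CPM in wild-type hearts and 136, 151, 146 and 146 CPM in Ing5-/- hearts, but 125, 126, 122 and 159.8 CPM in Ing4+/- hearts and 129, 149.9, 124 and 118 CPM in Ing4+/- Ing5-/- hearts. The 2 high values among the hearts with 1 Ing4 allele were those of Ing4+/- 4 and Ing4+/- Ing5-/- 2, which stood apart over all genes. With all hearts the log2 fold change was -0.24 ± 0.09 in Ing4+/- against wild-type hearts (edgeR adjusted p = 0.963), a comparison in which 0% of all genes were called. It was -0.26 ± 0.09 in Ing4+/- Ing5-/- against wild-type hearts (edgeR adjusted p = 0.214). Averaged over both Ing5 states, the log2 difference between hearts with 1 and 2 Ing4 alleles was -0.19 ± 0.06 (edgeR adjusted p = 0.889), in a comparison in which 0% of all genes were called. Without the 3 hearts it was -0.30 ± 0.04 (adjusted p = 0.0095), where 0.0761% of all genes were called.

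The calls for kinetochore genes turned on the 3 hearts that stood apart. Without them, which left 3 hearts in each mutant genotype, Cenpf passed the edgeR test at -0.34 ± 0.06 in Ing4+/- hearts (adjusted p = 0.0363) and at -0.34 ± 0.06 in Ing4+/- Ing5-/- hearts (adjusted p = 0.00346), both against wild-type hearts, where 0.0254 and 2% of all genes were called. Cenpe, the motor that carries chromosomes to the spindle equator, was at 107, 96.5, 107 and 104 CPM in wild-type hearts and 83.9, 142, 87.5 and 88.8 CPM in Ing4+/- Ing5-/- hearts. Its log2 fold change was -0.04 ± 0.13 with all hearts (edgeR adjusted p = 0.940) and -0.26 ± 0.06 without the 3 (adjusted p = 0.0257). Anln was called as well without the 3 hearts, at -0.25 ± 0.06 (edgeR adjusted p = 0.0260), and all 33 members were then below 0, with a median of -0.17. That fit lacks Ing4+/- Ing5-/- 2, the heart of its genotype whose member mean lay above the wild-type range. The share of all genes below 0 in it is not given here. The other 2 kinetochore genes, Ndc80 and Nuf2 of the complex that grips microtubules, were at -0.13 and -0.10 with all hearts.

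None of the 4 cyclin and CDK genes, which start mitosis, passed the test. Cdk1, the kinase itself, was at 219.7, 234, 228 and 212 CPM in wild-type hearts, 201, 208, 224 and 217 CPM in Ing4+/- hearts, 202, 216, 227 and 208 CPM in Ing5-/- hearts and 215, 193, 203 and 194 CPM in Ing4+/- Ing5-/- hearts. All 4 genotypes overlapped, and the log2 fold change in Ing4+/- Ing5-/- against wild-type hearts was -0.15 ± 0.06 (edgeR adjusted p = 0.357). Ccnb1, which encodes cyclin B1, was at 117, 104, 98.9 and 101 CPM in wild-type hearts, 111, 119.5, 112 and 110.4 CPM in Ing4+/- hearts, 85.9, 100.1, 104 and 112 CPM in Ing5-/- hearts and 104, 111, 85.0 and 96.3 CPM in Ing4+/- Ing5-/- hearts. Its highest group was thus Ing4+/-, and the log2 fold change of Ing4+/- Ing5-/- against Ing4+/- hearts was -0.19 ± 0.09 (edgeR adjusted p = 0.318).

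Ccnb2, the gene of cyclin B2, varied little between wild-type hearts, at 123, 122, 124 and 125 CPM. It was at 109.5, 119, 121 and 106 CPM in Ing4+/- hearts and 109, 108, 121 and 120.1 CPM in Ing5-/- hearts, all below the wild-type range, where 2.04 and 2.26% of all genes were lower without overlap, and at 123, 129, 110.5 and 113 CPM in Ing4+/- Ing5-/- hearts, on both sides of it. Log2 fold changes against wild-type hearts were -0.12 ± 0.07 in Ing4+/- hearts (edgeR adjusted p = 0.963) and -0.11 ± 0.07 in Ing5-/- hearts (adjusted p = 0.609). The last gene of this group, Ccna2, was at -0.14 in Ing4+/- Ing5-/- hearts, and the 3 genes of the mitotic kinases and Tpx2 were between -0.21 and -0.12.

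Aurkb, the kinase of the chromosomal passenger complex that corrects faulty attachments, was at 70.1, 73.7, 76.5 and 67.2 CPM in wild-type hearts, 64.5, 67.8, 75.5 and 71.1 CPM in Ing4+/- hearts, 71.1, 67.1, 78.3 and 79.7 CPM in Ing5-/- hearts and 72.6, 77.0, 64.9 and 59.8 CPM in Ing4+/- Ing5-/- hearts. Every genotype overlapped every other, and the log2 fold change in Ing4+/- Ing5-/- against wild-type hearts was -0.07 ± 0.08 (edgeR adjusted p = 0.817). The 4 genes of this complex lay in a narrow band in that comparison, from -0.10 for Birc5, which encodes survivin, to -0.07 for Aurkb.

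Mad2l1, which encodes the checkpoint protein MAD2 that inhibits CDC20, was the member with the smallest p among the comparisons of Ing4+/- Ing5-/- hearts with the other mutants. It was at 84.7, 89.1, 88.3 and 100.1 CPM in Ing4+/- hearts and 81.7, 80.7, 76.8 and 74.3 CPM in Ing4+/- Ing5-/- hearts, with no overlap. It was the 1 member of 33 without overlap there, where 4.88% of all genes were lower without overlap. Wild-type hearts, at 86.9, 91.8, 76.1 and 81.6 CPM, and Ing5-/- hearts, at 104, 81.5, 75.6 and 90.8 CPM, overlapped both. The log2 fold change was -0.21 ± 0.09 against Ing4+/- hearts (edgeR adjusted p = 0.280, with 1.16% of all genes called) and -0.17 ± 0.09 against Ing5-/- hearts (edgeR adjusted p = 0.775, with 0.00634% called). The latter was -0.08 without Ing5-/- 1 and -0.09 without the 3 hearts that stood apart. The interaction of the Ing4 and Ing5 alleles, the excess of the combined loss over the sum of the single losses, was -0.27 ± 0.12 for Mad2l1 (edgeR adjusted p = 0.842), and 0% of all genes were called in it.

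The 2 genes of chromosome structure are both widely used as markers of proliferation. Top2a was at 558, 504, 566 and 563 CPM in wild-type hearts, 520.2, 481, 512 and 627 CPM in Ing4+/- hearts, 463, 504, 523 and 604 CPM in Ing5-/- hearts and 492, 643, 492 and 497 CPM in Ing4+/- Ing5-/- hearts. The log2 fold change in Ing4+/- Ing5-/- against wild-type hearts was -0.04 ± 0.10 (edgeR adjusted p = 0.914), and -0.15 without Ing4+/- Ing5-/- 2. Mki67, the gene of the Ki-67 protein that coats mitotic chromosomes, was at 445, 368, 391 and 398 CPM in wild-type hearts, 305, 302, 394 and 438 CPM in Ing4+/- hearts, 435, 374, 361 and 475 CPM in Ing5-/- hearts and 365, 649, 372 and 278 CPM in Ing4+/- Ing5-/- hearts. The highest and the lowest of the 16 values fell in the same genotype, and the log2 fold change was 0.06 ± 0.21 (edgeR adjusted p = 0.950); without Ing4+/- Ing5-/- 2 it was -0.24. Aspm had the same high heart, with 76.1, 108, 72.2 and 77.2 CPM in Ing4+/- Ing5-/- hearts against 100.3, 76.7, 73.6 and 89.6 CPM in wild-type hearts, 76.5, 81.4, 79.7 and 94.9 CPM in Ing4+/- hearts and 100.1, 93.5, 88.7 and 88.0 CPM in Ing5-/- hearts.

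**Figure D4:**
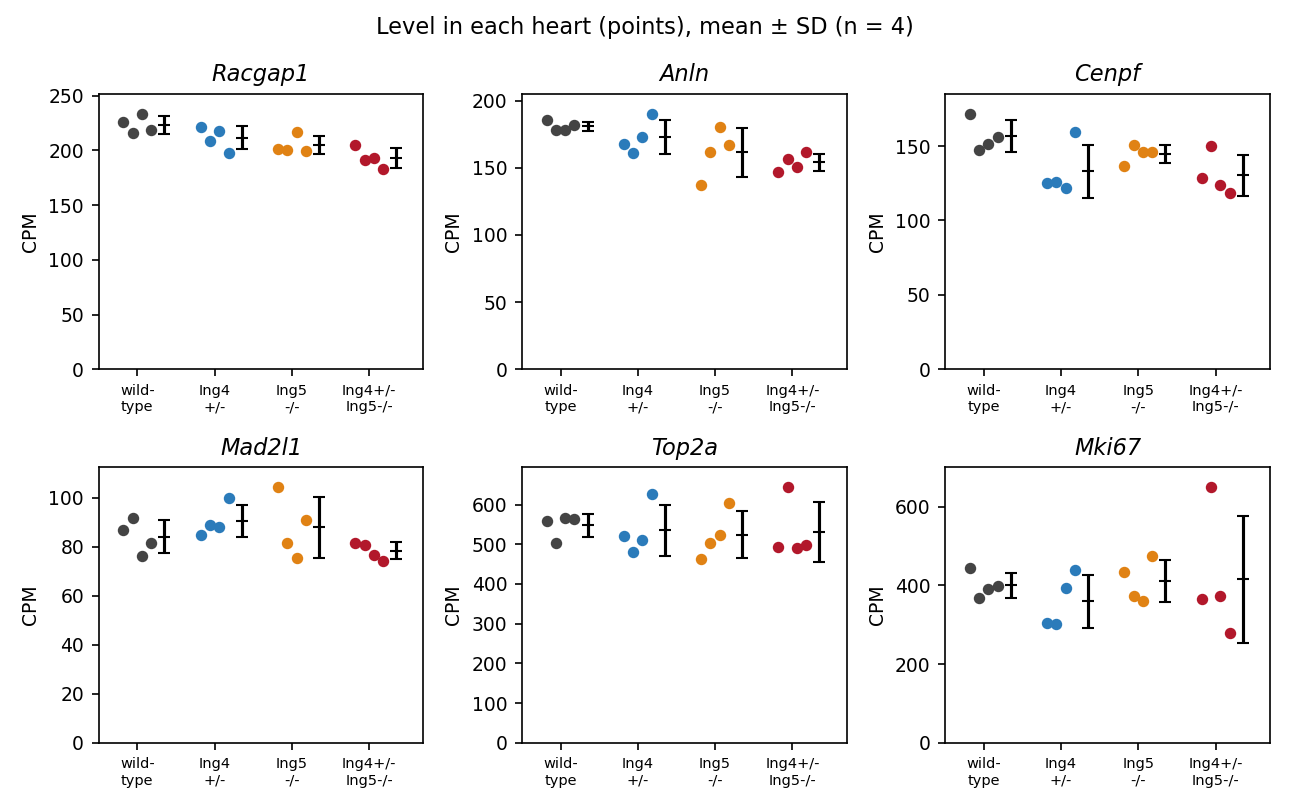
CPM of 6 members in each heart (points, replicates 1 to 4 from left to right) with the mean and SD of the 4 hearts beside them, on axes that start at 0. Racgap1 and Anln show Ing4+/- Ing5-/- points below all wild-type points, while in Mki67 the points of that genotype run from 278 to 649 CPM.

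No member was called by edgeR in the other comparisons. Ing5-/- against wild-type hearts gave a median of -0.06 with 26 members below 0 (46.8% of all genes were). Leaving out 1 library, this median ran from -0.11 without Ing5-/- 4 to -0.02 without Ing5-/- 1. There Anln alone had an unadjusted p under 0.05, where 9.59% of all genes did; 0.0127% of all genes were called. Prc1 was the other member, beside Ccnb2, that was lower without overlap. Ing4+/- against wild-type hearts gave a median of -0.04 with 25 below 0 (48.4% of all genes), and Ing4+/- Ing5-/- against Ing5-/- hearts -0.05 with 24 below 0 (51.1%). Ing4+/- Ing5-/- against Ing4+/- hearts gave -0.08 with 26 below 0 (50.3% of all genes), and 4 members (Ccnb1, Mad2l1, Racgap1 and Anln) had an unadjusted p under 0.05 there, where 13.9% of all genes did. These comparisons share hearts with one another, so their directions are not separate observations. Pooled over both Ing4 states, loss of Ing5 gave a median of -0.07 with 27 below 0 (48.1% of all genes), a smallest adjusted p of 0.114 for Anln and no member called by edgeR, where 2.13% of all genes were called. DESeq2 called Racgap1 in that comparison too (adjusted p = 0.0398), along with 4.47% of all genes.

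The median over the members did not have one direction between litter mates. In litter 4, Ing4+/- Ing5-/- 2 against wild-type 1 gave a median log2 difference of 0.05, with 13 of 33 members below 0 (50.8% of all genes). Mki67 was at 0.55 there and Anln at -0.24. In litter 6, Ing4+/- Ing5-/- 3 against wild-type 4 gave -0.18 with all 33 below 0 (49.1% of all genes), led by Cenpf at -0.33. Against Ing4+/- litter mates the medians were 0.12, -0.20 and -0.23 in litters 4, 6 and 7. Over the 5 pairs of an Ing4+/- Ing5-/- heart with a wild-type or Ing4+/- litter mate, Racgap1 ran from -0.24 to -0.11, Anln from -0.27 to -0.04 and Cdk1 from -0.18 to -0.07. Some of these pairs share a heart. Against Ing5-/- litter mates Racgap1 was at 0.03 in litter 1, where the mean of Ing5-/- 1 and Ing5-/- 2 was used, and -0.12 in litter 7. No litter held more than 1 Ing4+/- Ing5-/- heart, so there is no test within a litter.

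Markers of other cells differed between the same hearts, and their part in the members' values was not tested. The 8 macrophage markers summed to 9.52 to 15.5 CPM in wild-type hearts and 37.4 to 58.5 CPM in Ing4+/- Ing5-/- hearts, and 7 of the 8 were called higher. The 10 erythroid markers summed to 8903 to 11842 CPM in wild-type hearts and 7820 to 48796 CPM in Ing4+/- Ing5-/- hearts, with none called. The 7 epicardial markers summed to 493 to 544 CPM and 376 to 460 CPM; 6 of the 7 were below 0, with a median log2 fold change of -0.38, while Krt19 was called higher at 0.71 ± 0.12 (edgeR adjusted p = 0.00501). The sums were, in the same order, for the 6 of mesenchyme and neural crest 304 to 404 CPM and 272 to 304 CPM, and for the 10 endothelial and endocardial markers 1156 to 1330 CPM and 1097 to 1490 CPM. No marker was at 0 in a wild-type or an Ing4+/- Ing5-/- heart. In Ing5-/- 1 the cardiomyocyte markers summed to 22560 CPM, against 32463 to 37498 CPM in the other Ing5-/- hearts, and the epicardial markers to 1177 CPM, against 347 to 558 CPM. Bulk counts do not assign a mitotic transcript to one of these cell types.

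Mki67 and Espl1 followed the haemoglobin RNA of a heart. In a model with genotype and the log2 share of haemoglobin reads, Mki67 rose by 0.29 ± 0.05 on the log2 scale per doubling of that share (edgeR adjusted p = 0.00034), and Espl1, the gene of separase, by 0.16 ± 0.03 (adjusted p = 0.0103). They were 2 of 33 members called higher, where 1.93% of all genes were. Espl1 was at 98.7, 81.3, 95.2 and 90.2 CPM in wild-type hearts, 82.4, 82.2, 91.2 and 78.3 CPM in Ing4+/- hearts, 88.0, 88.1, 90.4 and 114 CPM in Ing5-/- hearts and 87.3, 114, 85.2 and 72.5 CPM in Ing4+/- Ing5-/- hearts. Its highest values were in the 2 hearts with the most haemoglobin. Without both of these hearts the slope of Mki67 was 0.28 ± 0.05 (edgeR adjusted p = 0.00631), while that of Espl1 was 0.08 ± 0.05 (adjusted p = 0.950). Espl1 also missed the threshold without Ing4+/- Ing5-/- 2 alone (adjusted p = 0.195) and without Ing5-/- 4 alone (adjusted p = 0.112), and in the latter case Nuf2 was called at 0.15 ± 0.03 (adjusted p = 0.0184). Over all genes the share called higher was 0.664% without both hearts, 1.17% without Ing4+/- Ing5-/- 2 and 1.34% without Ing5-/- 4. With all hearts the slopes were positive for 30 of 33 members, with a median of 0.06. Without the 2 hearts with the most haemoglobin, 27 were positive and the median was 0.03. The share of positive slopes over all genes is not given here.

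**Figure D5:**
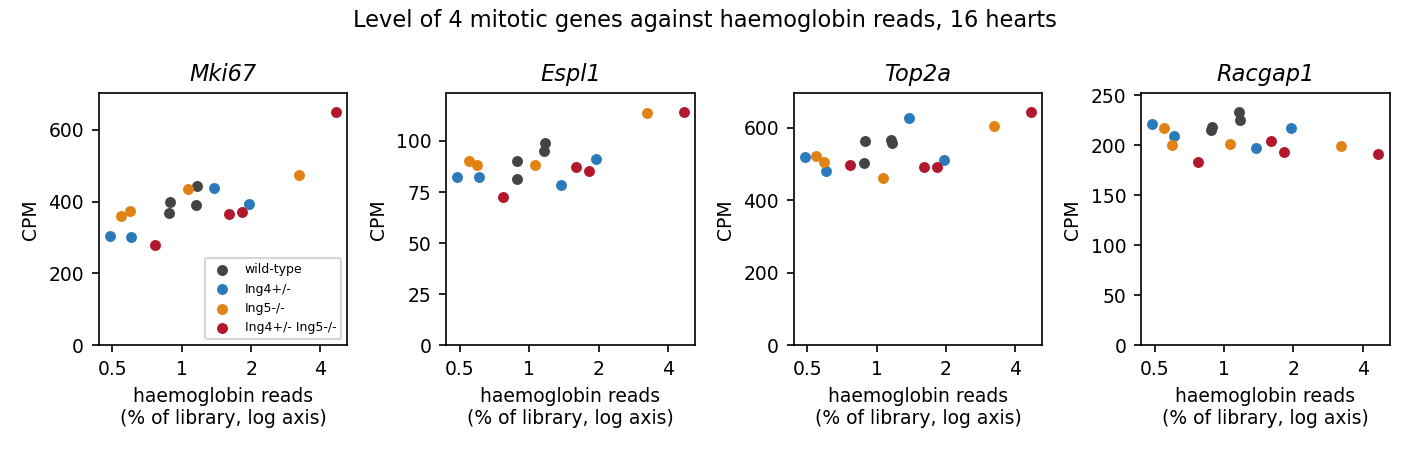
CPM of Mki67, Espl1, Top2a and Racgap1 against the share of haemoglobin reads in percent (log axis) in the 16 hearts, coloured by genotype. Mki67 is at 305 CPM in the heart with the least haemoglobin RNA and 649 CPM in the heart with the most, while Racgap1 lies between 183 and 233 CPM in all.

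The members varied together between hearts of the same genotype. Over the 16 hearts, as deviations from the genotype mean, the 528 pairs of members had a median Pearson r of 0.52, and 90.0% of pairs were positive, while the median over all gene pairs was -0.00. The hearts share library depth and composition within each point, and 3 of them stood apart; without those 3 the median was 0.45. Kif11 and Top2a were the closest pair at 0.94. Nusap1 and Tpx2, which both act on spindle microtubules, had the highest mean r with the other members, at 0.62 and 0.61. Mad2l1 had the lowest mean r, at -0.07, and -0.63 with Kif20a, while Racgap1 was at 0.12 and Cdk1 at 0.16. Without the 3 hearts the mean r rose to 0.12 for Mad2l1, 0.33 for Racgap1 and 0.18 for Cdk1. It fell for others: from 0.25 to 0.01 for Aspm, which was then the lowest, and from 0.33 to 0.02 for Anln. For Ect2 it fell from 0.44 to 0.07, for Cenpf from 0.42 to 0.15 and for Cenpe from 0.44 to 0.16.

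Gene length went with the members' levels in some hearts. In Ing4+/- Ing5-/- 2 the members' deviations correlated with log2 gene length at r = 0.62 over the 33 genes, and in Ing4+/- 4 at 0.59, while in Ing4+/- Ing5-/- 1 the value was -0.76. Wild-type hearts gave 0.59 for wild-type 1 and -0.60 for wild-type 2. Over all 15785 genes the same correlation was -0.01, 0.11, -0.12, -0.04 and -0.06 in those hearts. Cenpf, Mki67, Aspm and Cenpe are the longest members, with 11130, 10075, 9866 and 7813 bases, and the last 3 had the widest spread between Ing4+/- Ing5-/- hearts, with coefficients of variation of 38.7% for Mki67, 19.7% for Aspm and 27.6% for Cenpe. The part of gene length in their levels was not tested.

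Of the genes outside the set, the 10 whose deviations were most like the member mean over the 16 hearts were Smc4 (r = 0.97), Nars (0.95), Synrg (0.93), Xpot (0.92), Foxh1 (0.92), Yars (0.92), Fbxo38 (0.91), Pip4k2c (0.91), Nsun2 (0.91) and Ncoa1 (0.90). Smc4 encodes the core ATPase of condensin, which compacts mitotic chromosomes, and it remained at 0.93 without the 3 hearts that stood apart. Nars and Yars encode tRNA synthetases, and Xpot encodes the export receptor of tRNA. Without the 3 hearts the r was 0.89 for Nars, 0.83 for Yars and 0.76 for Xpot, and the lowest of the 10 was 0.71 for Ncoa1. At the other end, Ccnd1, the G1 cyclin D1 gene, had the lowest r of all 15301 genes compared, at -0.95, and -0.87 without the 3 hearts; it was singled out after its value was seen.

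Other genes of the cell cycle also gave no calls. Of 100 other mitotic genes, 68 were below 0 in Ing4+/- Ing5-/- against wild-type hearts, and the median was -0.05; 0 were called. The smallest adjusted p among them was 0.0796 for Spc25, a partner of Ndc80 and Nuf2 at the kinetochore, at -0.27 ± 0.07 (edgeR). Among 22 regulators of mitotic transcription, such as the E2F, MuvB, B-MYB, FOXM1 and NF-Y genes, none was called and none had an unadjusted p under 0.05, and the median was -0.02. Of 15 listed G1 cyclins, CDKs and CDK inhibitors, 14 were tested and none was called. The log2 fold change was -0.22 ± 0.08 for Ccne1 (edgeR adjusted p = 0.314) and 0.24 ± 0.09 for Ccnd2 (adjusted p = 0.318).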

How the data were processed

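RNA was isolated as total RNA from the heart of each embryo with a column kit and made into stranded libraries, per the labels' protocols. The deposited values are raw counts of reads per gene, in 1 table of all hearts and 16 tables of single hearts, which were equal to it. Gene lengths in bases, a deposited column of another unit (other), were used for RPKM and for the check of length. Per the submitters' processing notes, bcl2fastq, featureCounts and mm10 were used. Their versions, the annotation used and the aligner were not given in the sources used here. Of 27179 identifiers, 25275 (93.0%) were matched to a RefSeq symbol of GRCm38.p6. For 8 members (Ccna2, Aurka, Cdc20, Nusap1, Prc1, Kif20a, Ect2 and Anln) another gene overlaps the locus, and their counts are uncertain to the extent that reads were shared.

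The counts were modelled in R 4.3.3 using edgeR 4.0.16 (filterByExpr, TMM factors of 0.967 to 1.08), limma 3.58.1 and DESeq2 1.42.0. All 16 libraries and 15785 genes entered 1 quasi-likelihood model of the 4 genotype means, and 8 comparisons were tested: 5 pairwise, the interaction and 2 pooled. The biological coefficient of variation was 0.159. A fold change's standard error, on the log2 scale, is its absolute value over the square root of F. Within genotypes, pairs of libraries gave chi-square values of 6.54 to 109 per degree of freedom, more than counting error gives. Each heart is a separate embryo per the labels, and no source says whether it was handled separately from its litter mates.

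Members and gene lists were chosen with earlier results of these data known, so no list was tested as a set. Members given by heart were the 2 with the smallest p in each pairwise comparison, the highest and lowest in RPKM, and Cdk1, Ccnb1, Aurkb, Anln, Top2a and Mki67; Espl1, Cenpe, Plk1 and Bub1b were added after their values were seen. Promoter motifs were searched on both strands. Of 24 pairs of libraries that share a replicate number, 5 had residuals correlated above 0.1, and the numbers were therefore not treated as a pairing. The test was also run on simulated data with known changes. Alternatives were other normalization, filters, tests, groups in the fit, litter or replicate blocks, Y-linked and haemoglobin covariates, haemoglobin genes left out, and libraries left out. The haemoglobin slopes and the correlations without 3 hearts were added after seeing the data. The 3 hearts left out together were picked by their scores in these same data.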

Additional observations from a re-analysis of the deposited data

Results flagged for a closer look

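In 12 of 132 groups of 4 hearts, 1 heart lay far from the other 3 for a member's CPM by Dixon's criterion, which chance meets in about 1 in 20 groups. Of the 12 groups, 4 had the far heart in Ing4+/- Ing5-/- 2, which had the most haemoglobin RNA and, alone in its genotype, high Xist RNA. They were Top2a at 643 CPM (others 492 to 497), Cenpe at 142 (83.9 to 88.8), Kif11 at 216 (160.1 to 166) and Aspm at 108 (72.2 to 77.2). In Ing4+/- 4, which stood apart over all genes, there were 3: Bub1 at 129 CPM (107 to 109), Cenpf at 160 (122 to 126) and Cenpe at 113 (85.0 to 89.3). Ing5-/- 4 had the next most haemoglobin RNA and, alone in its genotype, high Xist RNA. There Espl1 was at 114 CPM (88.0 to 90.4) and Cenpe at 108 (97.0 to 98.7). The other 3 were Racgap1 at 217 CPM in Ing5-/- 3 (199.5 to 201), Aurka at 104 CPM in Ing4+/- 3 (90.0 to 91.9) and Top2a at 504 CPM in wild-type 2, the single low one (558 to 566). Cenpe was thus far from the rest in 1 heart of each mutant genotype.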

How the results depend on the processing

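In Ing4+/- Ing5-/- against wild-type hearts, 0 members were called. The number was 1 with only the groups compared (Anln, edgeR adjusted p = 0.0338), a fit whose share over all genes is not given here. It was 1 with the DESeq2 Wald test (Racgap1), where 2.06% of all genes were called. It was 3 without the 3 libraries that stood apart, where 2% were called. Leaving out each library in turn gave 0 to 1. Without those 3 libraries, 1 member (Cenpf) was called in Ing4+/- hearts against wild-type and 2 (Cenpe and Cenpf) over hearts with 1 Ing4 allele, and the median moved to -0.14 in Ing4+/- Ing5-/- against Ing5-/- hearts and -0.090 in the interaction. DESeq2 called 1 member (Racgap1) for pooled loss of Ing5. Signs turned for Aurkb with litter as a block (0.031) and for Mki67 with limma-voom (-0.014), the haemoglobin covariate (-0.25), without the 3 libraries (-0.25) and without Ing4+/- Ing5-/- 2 (-0.24); leaving out 1 library took Mki67 from -0.24 to 0.21, and the cause was not tested. Leaving out 1 library, the median ran from -0.17 to -0.06 in Ing4+/- Ing5-/- against wild-type hearts and from -0.09 to 0.01 against Ing5-/- hearts, above 0 without Ing5-/- 4. With the replicate block, 0 members were called in each comparison, and the median in Ing4+/- Ing5-/- against wild-type hearts was -0.10. With litter as a block it was -0.09 with 0 called. The lowest count of a member in a heart was 754.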
